A study of Mus musculus with 46 samples.

Results

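RNA sequencing of AB1-HA tumors was used here to follow 10 genes of glycolysis and of the response to low oxygen, taken by name from the count table. The glycolytic members were Hk2, Aldoa, Gapdh, Eno1 and Ldha, and the hypoxia members were Bnip3, Car9, Egln3, Adm and Angptl4. These 10 were among 46011 complete gene entries of the count table, and all 10 passed the filter on low counts in every comparison.

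Glycolysis breaks glucose down to pyruvate in the cytosol, and tumors commonly run it at a high rate even where oxygen is present. When oxygen falls, prolyl hydroxylases stop marking the alpha subunits of the hypoxia-inducible factors (HIF) for destruction, and HIF then binds short DNA elements beside its target genes. Glycolytic enzymes, BNIP3, carbonic anhydrase 9, EGLN3, adrenomedullin and ANGPTL4 are all textbook HIF targets, although most of them also answer to other signals.

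AB1-HA is a murine mesothelioma line, grown here as subcutaneous tumors on both flanks of male BALB/c mice aged 8 to 10 weeks, all of which were given cyclophosphamide (CY) at 200 mg/kg on day 10 after inoculation. A single tumor was taken for RNA and the one left in place showed the outcome, complete response (CR) or PR, which the labels spell out as partial response and the paper calls progression. Day-1 tumors, resected on day 9 before any CY, came from 13 CR and 13 PR mice, while Day+3 (day 13) and Day+7 (day 17) each gave 5 CR and 5 PR tumors from other mice. Tumors after CY were therefore older than those before it, no untreated tumor of the same age was included, and time after CY cannot be told apart from tumor age. Depth differed with time as well, at 10.2 to 14.2 M counts (M stands for 1e6) per tumor at Day-1, 15.4 to 18.7 M at Day+3 and 16.05 to 19.4 M at Day+7. In whole tumors, fewer cells of a type and less RNA per cell cannot be told apart.

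The HIF binding element holds the core letters ACGTG or GCGTG, and both were searched on both strands of the RefSeq promoter windows (GRCm38.p6, 250 bases before to 50 bases after a start site). At least 1 match stood in 43.8% of 32851 windows of this length and 2 or more in 20.6%, so a match on its own is common. The 250 bases upstream of the start are shown for Hk2, Ldha, Bnip3 and Adm, which are among the members with the largest changes after CY or the most matches, with matches in capitals. Each is written 5′ to 3′ on the strand of its gene, so that the reverse strand reads as CACGT or CACGC, and CACGTG counts once on each strand.
Hk2 (chr6:82774455-82774704, minus strand): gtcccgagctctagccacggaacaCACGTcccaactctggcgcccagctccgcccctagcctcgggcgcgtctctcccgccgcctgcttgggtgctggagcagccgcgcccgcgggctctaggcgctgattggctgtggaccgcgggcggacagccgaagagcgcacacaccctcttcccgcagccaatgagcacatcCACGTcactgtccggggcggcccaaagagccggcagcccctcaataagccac
Ldha (chr7:46845554-46845803, plus strand): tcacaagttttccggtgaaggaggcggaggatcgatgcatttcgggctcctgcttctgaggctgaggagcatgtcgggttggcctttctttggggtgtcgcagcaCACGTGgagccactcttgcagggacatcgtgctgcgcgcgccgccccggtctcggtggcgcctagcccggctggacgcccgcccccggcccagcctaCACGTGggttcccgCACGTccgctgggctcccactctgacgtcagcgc
Bnip3 (chr7:138909507-138909756, minus strand): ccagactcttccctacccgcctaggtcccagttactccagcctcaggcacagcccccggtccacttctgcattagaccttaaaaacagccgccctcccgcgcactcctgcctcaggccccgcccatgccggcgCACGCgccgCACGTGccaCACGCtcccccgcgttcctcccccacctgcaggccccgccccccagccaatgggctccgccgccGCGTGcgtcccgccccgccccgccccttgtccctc
Adm (chr7:110627407-110627656, plus strand): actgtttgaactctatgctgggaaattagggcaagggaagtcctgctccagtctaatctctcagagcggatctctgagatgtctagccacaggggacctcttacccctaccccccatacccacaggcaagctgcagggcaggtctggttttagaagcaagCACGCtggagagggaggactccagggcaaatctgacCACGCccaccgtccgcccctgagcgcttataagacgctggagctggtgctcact

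Upstream of Hk2 stood 2 matches, both ACGTG. The Ldha window shown, which is the one of 2 with more matches and lies inside the longer gene model of GENCODE M21, held 5 matches of ACGTG, of which 4 lay in 2 stretches of CACGTG, while the window at its other start held 1 match of GCGTG. Bnip3 also had 5, of which 2 were ACGTG and 3 were GCGTG, and Adm had 2, both GCGTG. Car9 and Egln3 each had 1 upstream match of ACGTG. Gapdh held 2 of GCGTG, and the windows at the alternative starts of Aldoa and Eno1 held between 0 and 2. With the bases after the start included, the Ldha windows held 7 and 2 matches and the Gapdh window 3. Angptl4 is named without a window. These matches are a description of the letters and no site was tested.

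Per length of transcript, the glycolytic members Gapdh, Aldoa, Ldha and Eno1 were far above the other members before CY. Gapdh, which oxidises glyceraldehyde phosphate (chr6:125161715-125166467, GRCm38), averaged 2483 ± 269 CPM (counts per 1e6 counts of the TMM-scaled library) per kb over 26 Day-1 tumors (SD). Aldoa, the aldolase that splits fructose bisphosphate (chr7:126795234-126800751), stood at 909 ± 117 CPM per kb. Ldha, the lactate dehydrogenase subunit that favours lactate (chr7:46841475-46855627), stood at 649 ± 77.1, and Eno1, the enolase of most tissues (chr4:150236721-150248879), at 476 ± 63.6 CPM per kb. The ranges of the last pair overlapped, with Eno1 up to 620 and Ldha from 520 CPM per kb. Levels of Eno1 and Gapdh leave out counts assigned to near-identical genes. At Day-1 Eno1 itself averaged 935 CPM and its family 1735 CPM, so its place in this order depends on how shared reads were counted.

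Below them came Bnip3, a mitochondrial protein of mitophagy and cell death (chr7:138890836-138909519), at 52.7 ± 18.3 CPM per kb, and Angptl4, a secreted inhibitor of lipoprotein lipase (chr17:33773750-33781830), at 43.0 ± 5.29 CPM per kb. Their ranges overlapped. Hk2, the inducible hexokinase that traps glucose in the cell (chr6:82725025-82774454), averaged 19.4 ± 3.00 CPM per kb. Egln3, a HIF prolyl hydroxylase (chr12:54178981-54203860), averaged 8.17 ± 1.78 CPM per kb. Car9, a carbonic anhydrase at the cell surface (chr4:43506966-43513729), and Adm, the vasodilator peptide adrenomedullin (chr7:110627661-110629820), were lowest at 4.96 ± 2.28 and 4.53 ± 1.37 CPM per kb and did not differ beyond their spread.

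The mean levels of the hexokinases changed order with time on this per-length scale. At Day-1, Hk1, the hexokinase of most tissues, stood at 54.1 ± 5.58 CPM per kb, above Hk2 at 19.4 and Hk3, a form found in myeloid cells, at 9.67 ± 5.13. The Day-1 ranges of Hk2 and Hk3 overlapped. By Day+3 Hk2 was at 6.61 ± 1.63, below Hk3 at 11.1 ± 4.25 and Hk1 at 41.6 ± 2.25 CPM per kb, although Hk2 and Hk3 overlapped again. At Day+7 Hk3 was highest at 184 ± 43.5, with Hk1 at 67.8 ± 12.5 and Hk2 at 62.6 ± 13.4 CPM per kb, whose ranges overlapped.

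Counts of Eno1 and Gapdh were shared with near-identical genes. Eno1b and the processed pseudogene Gm4735 carry many of the same 31-base stretches as Eno1, and on the median Day-1 tumor 54.1% of the summed counts of the 3 genes were assigned to Eno1 (range 47.2 to 58.8%). At Day+3 that share was 43.4% (41.7 to 45.7%) and at Day+7 it was 43.2% (40.2 to 44.8%), below the Day-1 range at both times. Within Day-1 the share also differed by title number, a cut chosen after the values were seen. It was 47.2 to 53.8% in CT1 to CT11 and 53.1 to 58.8% in CT12 to CT26. The cause of these shifts in share was not tested. The level of the whole Eno1 family was 1735 ± 218 CPM at Day-1 (n = 26), 830 ± 57.2 at Day+3 (n = 10) and 2433 ± 571 at Day+7 (n = 10). Gapdh had 43 such copies, of which Gm13394 took most of the remaining counts (2434 ± 319 CPM at Day-1). Between 53.5% and 61.2% of the family's counts were assigned to Gapdh itself at Day-1, and 57.9% to 61.0% after CY. Levels of Eno1 and Gapdh are therefore uncertain by this split, and their fold changes to the extent that it moved. Values for the summed families are given beside the fold changes against Day-1.

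**Figure D1:**
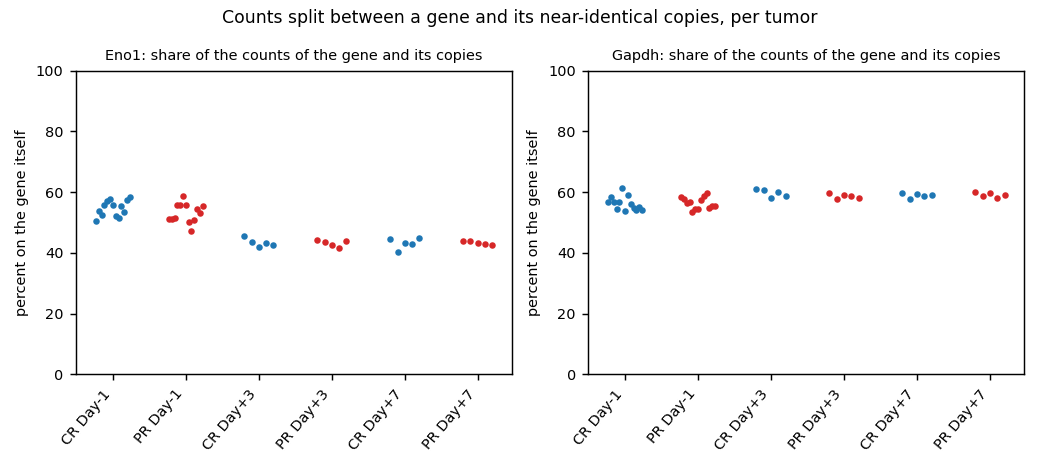
Share of counts assigned to Eno1 (left) and to Gapdh (right) among the counts of the gene and its near-identical copies, in percent on the vertical axis, with 1 point per tumor and the 6 groups along the horizontal axis (blue CR, red PR). The Eno1 share lay between 47.2 and 58.8% in Day-1 tumors and between 40.2 and 45.7% in all later tumors.

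Whether response to CY went with the level of these genes before treatment was asked in the 26 Day-1 tumors. None of the 10 members passed an FDR under 0.1 between CR and PR (edgeR quasi-likelihood test), where 0.00928% of 10777 genes tested did, 1 gene in all. DESeq2 called 430 genes and limma-voom 1188, again with none of the members among them. At an unadjusted p under 0.05 there were 1885 genes, and among the members Angptl4 alone. The log2 fold changes of the members ran from −0.10 to 0.37, with a median of 0.05 against −0.01 for all genes tested.

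Angptl4 ranged from 123 to 175 CPM in CR tumors (median 147, n = 13) and from 107 to 176 CPM in PR tumors (median 135, n = 13). The groups overlapped over nearly their whole range. Its log2 fold change was 0.14 (SE 0.06, unadjusted p = 0.0352 and FDR 0.247 by edgeR's model across all genes). Car9 had the largest difference, with 3.63 to 20.05 CPM in CR (median 9.80) and 4.53 to 20.1 CPM in PR (median 8.04). That difference, 0.37 on the log2 scale (SE 0.23, edgeR FDR 0.402), was within the spread of either group.

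Hk2 lay between 52.1 and 103 CPM in CR tumors (median 84.2) and between 60.6 and 112 CPM in PR tumors (median 76.6), a log2 fold change of 0.10 (SE 0.08, edgeR FDR 0.549). Adm, at 4.54 to 11.2 CPM in CR and 3.65 to 10.9 CPM in PR, gave 0.13 (SE 0.15, edgeR FDR 0.698), and Bnip3 gave 0.09 (SE 0.17, edgeR FDR 0.818). Groups overlapped for all 3. Egln3 was at −0.10 (SE 0.11), Gapdh at −0.06 (SE 0.06), Eno1 at −0.06 (SE 0.07), Ldha at −0.03 (SE 0.06) and Aldoa at 0.01 (SE 0.07), all with edgeR FDR between 0.592 and 0.976.

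Within the 26 Day-1 tumors the members varied to different degrees. Car9 had the highest coefficient of variation, 46%, followed by Bnip3 at 34.7% and Adm at 30.3%. Car9 and Adm also had the lowest counts, at 40 to 248 and 38 to 131 per tumor. The share of counting error in their spread was not tested. Gapdh varied least, at 10.8%, and Ldha, Angptl4, Aldoa and Eno1 were between 11.9% and 13.3%.

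Pairs of members were compared from tumor to tumor before CY. Of the 45 pairs of members, 28 had a Pearson correlation of log2 CPM with an adjusted p under 0.05 (permutation test, 100000 resamples, two-sided, Benjamini-Hochberg over the 45 pairs), 24 of them positive and 4 negative. The smallest correlation that passed was 0.43 in size, which 14.1% of the 58066500 pairs among all 10777 genes tested at Day-1 reached, and the same libraries and depth stand behind every pair. All 4 negative pairs were of Angptl4 with a glycolytic enzyme. Among the 10 pairs of glycolytic members 8 passed, with a median r of 0.82, and among the 10 pairs of hypoxia members 4 passed, with a median r of 0.31. Of the 25 mixed pairs 16 passed.

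Gapdh and Eno1 were closest, with r = 0.92 and Spearman's rho = 0.94 (n = 26, permutation test, adjusted p = 4.09e-05 for r, from the smallest p that 100000 resamples can give, and 6.43e-05 for rho). Without the pair of tumors farthest from the median r was 0.91, and it was 0.90 in CR, 0.93 in PR, 0.92 in tumors with title numbers up to 14 and 0.97 in those above. Aldoa and Ldha followed at r = 0.90 and rho = 0.91 with the same adjusted p-values, and stayed between 0.83 and 0.96 in the same subsets. Hk2 passed with Ldha (r = 0.51, permutation test, adjusted p = 0.0132) and with Aldoa (r = 0.49, adjusted p = 0.0197) and not with Eno1 (r = 0.30, adjusted p = 0.165) or Gapdh. With Gapdh it had r = 0.22 and rho = 0.18 (permutation test, adjusted p = 0.327 and 0.434), 0.07 without the 2 farthest tumors and −0.06 to 0.49 in the subsets.

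Hk2 also passed with 3 of the 5 hypoxia members, Bnip3, Car9 and Adm (r = 0.70), and not with Egln3 (r = 0.33, permutation test, adjusted p = 0.132) or Angptl4 (r = −0.15, adjusted p = 0.496). With Bnip3 it had r = 0.81 and rho = 0.72 (permutation test, adjusted p = 4.09e-05 and 0.00027), 0.75 without the 2 farthest tumors and between 0.77 and 0.85 within CR, PR and either range of title numbers. With Car9 it had r = 0.78 and rho = 0.73 at the same adjusted p-values, and 0.67 without the 2 farthest. Bnip3 and Car9 had r = 0.84 and rho = 0.84 (permutation test, adjusted p = 4.09e-05 and 6.43e-05), 0.77 without the 2 farthest and 0.76 to 0.94 in the subsets. Egln3 varied with few of the others: its one passing pair, with Bnip3, had r = 0.43 (permutation test, adjusted p = 0.0445), while rho was 0.24 (adjusted p = 0.300).

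Angptl4 ran against Aldoa, Gapdh, Eno1 and Ldha, and its pair with Hk2 did not pass. Its correlation with Eno1 was r = −0.62 and rho = −0.58 (permutation test, adjusted p = 0.00186 and 0.00609), −0.57 without the 2 farthest tumors, −0.48 in CR, −0.71 in PR, and −0.76 and −0.60 for title numbers up to 14 and above. With Gapdh it was −0.61 and −0.59 (permutation test, adjusted p = 0.00204 and 0.00609), −0.51 without the 2 farthest and −0.26 in CR against −0.75 in PR. The sign of r was the same in all 4 subsets for 35 of the 45 pairs. The number of passing pairs depended on the tumors used: 10 in the 13 CR tumors alone, 30 in the 13 PR tumors, 16 in tumors with title numbers up to 14 and 19 without the 2 farthest tumors of each pair. The difference between CR and PR in these correlations was not tested.

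**Figure D2:**
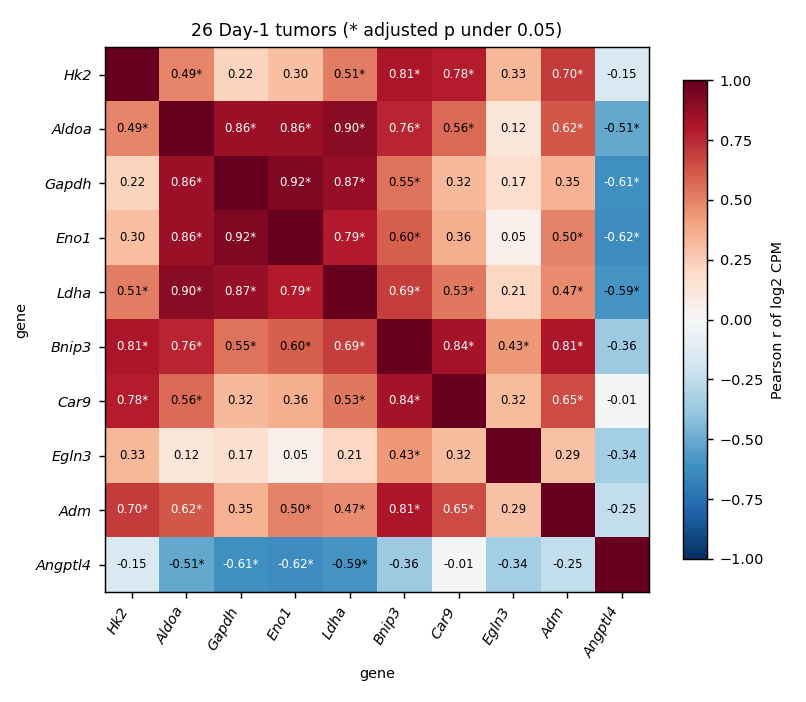
Pearson r of log2 CPM for each pair of the 10 members over the 26 Day-1 tumors, with genes on both axes, red for positive and blue for negative r, and a star for an adjusted p under 0.05 (permutation test). Gapdh, Eno1, Aldoa and Ldha form a block with r up to 0.92, and Hk2 pairs with Bnip3 (0.81) and Car9 (0.78). The Angptl4 row runs from −0.62 with Eno1 to −0.01 with Car9, with stars only for Aldoa, Gapdh, Eno1 and Ldha.

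After CY, levels were compared between time points with CR and PR given equal weight, in 1 model of 6 groups over 46 tumors and 13194 genes. The 3 time comparisons share tumors with each other, and their values stand side by side without a test of their likeness. At Day+3 against Day-1, 8 of the 10 members were lower and 1 was higher at an edgeR FDR under 0.1. Changes of this kind were frequent, since 37.9% of all genes tested were called higher and 39.6% lower. The median log2 fold change of the members was −0.79, against −0.02 for all genes.

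Hk2 fell most. It lay between 52.1 and 112 CPM in the 26 Day-1 tumors (median 80.9). At Day+3 it was 25.7, 27.3, 29.1, 38.2 and 20.9 CPM in the 5 CR tumors and 36.1, 20.8, 17.8, 25.6 and 33.2 CPM in the 5 PR tumors. Every Day+3 tumor was below every Day-1 tumor, and the log2 fold change was −1.55 (SE 0.11, edgeR FDR 6.08e-17).

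The other glycolytic enzymes fell with it. Eno1 went from 743 to 1217 CPM (median 935) down to 321 to 399 CPM (median 358), a log2 fold change of −1.38 (SE 0.09, edgeR FDR 8.07e-18). With its copies summed the change was smaller, −1.07 (SE 0.08, edgeR FDR 1.34e-15). Gapdh fell from 2655 to 3895 CPM (median 3141) to between 1620 and 1881 CPM (median 1714), by 0.88 on the log2 scale (SE 0.08), or by 0.95 with its copies.

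Ldha went from 826 to 1309 CPM (median 1027) to 585 to 675 CPM (median 630), and its log2 fold change was −0.72 (SE 0.07, edgeR FDR 8.78e-12). Aldoa went from 1064 to 1775 CPM (median 1341) to 749 to 954 CPM (median 867), a log2 fold change of −0.64 (SE 0.09, edgeR FDR 9.88e-09). None of the 5 enzymes overlapped between Day-1 and Day+3, a separation that 26.9% of all genes tested had in one direction or the other.

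Of the hypoxia members, Bnip3 was between 34.4 and 126 CPM at Day-1 (median 59.9) and between 30.3 and 39.2 CPM at Day+3 (median 33.9), a log2 fold change of −0.93 (SE 0.18, edgeR FDR 2.02e-05). Car9 was between 3.63 and 20.1 CPM and then between 4.08 and 6.32 CPM, a change of −0.86 (SE 0.20, edgeR FDR 0.000181). Both moved to the low end of the Day-1 range and varied much less among the Day+3 tumors, with coefficients of variation of 8.15% for Bnip3 and 14.4% for Car9. Adm fell by 0.44 on the log2 scale (SE 0.15, edgeR FDR 0.00663), from a median of 6.01 to 4.55 CPM. Taken apart by response it passed in CR (−0.53, edgeR FDR 0.0242) and not in PR (−0.35, FDR 0.132), and without the 16 tumors that held over 10 CPM of the keratinocyte gene Krt5 its change was −0.18 (FDR 0.238). Egln3 was at 15.7 to 34.4 CPM and then at 13.5 to 22.7 CPM, and its log2 fold change of −0.24 (SE 0.13, edgeR FDR 0.102) did not pass.

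Angptl4 moved the other way. Day-1 tumors held 107 to 176 CPM (median 143). At Day+3 the CR tumors held 439, 463, 563, 357 and 532 CPM and the PR tumors 467, 589, 576, 560 and 470 CPM. The lowest Day+3 tumor had more than the highest Day-1 tumor, and the log2 fold change was 1.82 (SE 0.12, edgeR FDR 5.95e-18).

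**Figure D3:**
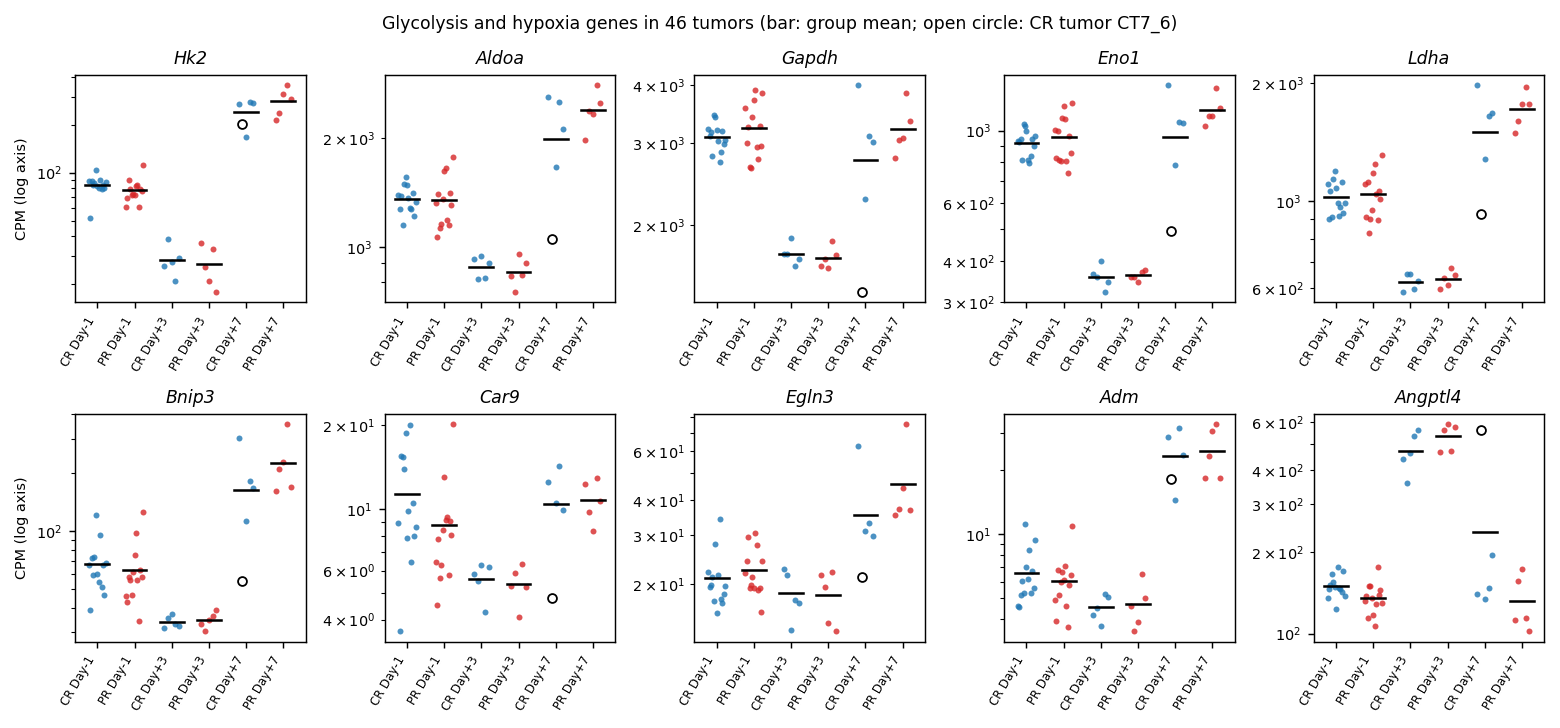
Level of each member in CPM (vertical axis, logarithmic) in the 46 tumors, 1 point per tumor, by response and time along the horizontal axis (blue CR, red PR, bars the group means, open circle the CR tumor CT7_6 of Day+7). Hk2 at Day+3 (17.8 to 38.2 CPM) lies below every Day-1 tumor and at Day+7 (168 to 355 CPM) above every one, while Angptl4 is highest at Day+3.

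At Day+7 against Day-1, 8 of the 10 members were higher at an edgeR FDR under 0.1 and none was lower, where 43% of all genes tested were called higher and 42.8% lower. The members' median log2 fold change was 0.67, against −0.01 for all genes.

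Adm and Hk2 separated completely from Day-1, as 39.4% of all genes tested did. Adm held 28.7, 14.6, 23.7, 18.1 and 31.7 CPM in CR tumors and 18.4, 30.6, 18.4, 23.5 and 33.0 CPM in PR tumors, where no Day-1 tumor exceeded 11.2 CPM. Its log2 fold change was 1.93 (SE 0.13, edgeR FDR 5.09e-18). Hk2 held 270, 168, 274, 203 and 278 CPM in CR and 214, 314, 289, 236 and 355 CPM in PR, above the Day-1 maximum of 112 CPM, and rose by a log2 fold change of 1.69 (SE 0.09, edgeR FDR 2.83e-21).

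Bnip3 rose by 1.55 (SE 0.16, edgeR FDR 7.04e-12). Its 10 Day+7 tumors spread from 54.9 to 356 CPM, with 303, 112, 168, 54.9 and 182 CPM in CR and 161, 226, 168, 210 and 356 CPM in PR, so the lowest 2 overlapped the Day-1 range. Egln3 rose by 0.89 (SE 0.12, edgeR FDR 1.38e-08), to between 21.3 and 75.1 CPM (median 36.2). Car9 did not pass, at 4.78 to 14.2 CPM (median 10.6) and a log2 fold change of 0.09 (SE 0.19, edgeR FDR 0.671).

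Among the enzymes, Aldoa rose by 0.69 (SE 0.08, edgeR FDR 1.44e-10) to 1054 to 2804 CPM, and Ldha by 0.64 (SE 0.07, edgeR FDR 1.88e-11) to 924 to 1973 CPM. Gapdh, between 1439 and 3996 CPM, was close to its level before CY with a log2 fold change of −0.08 (SE 0.08, edgeR FDR 0.339). Eno1, between 495 and 1377 CPM, passed narrowly at 0.17 (SE 0.08, edgeR FDR 0.0628). That call ended when single tumors were left out: CR tumor CT7_2 (0.09, FDR 0.296), CR tumor CT7_4 (0.15, FDR 0.1003) or PR tumor CT7_10 (0.14, FDR 0.121). Without CR tumor CT7_6, Eno1 was at 0.26 (FDR 0.000667) and Gapdh at 0.01 (FDR 0.883), and without CT7_2 Gapdh was called lower at −0.16 (FDR 0.0441). With its copies summed Eno1 was at 0.49 (SE 0.08, edgeR FDR 1.59e-07), and Gapdh with its copies at −0.15 (SE 0.08, edgeR FDR 0.0866), so what is said of these 2 enzymes at Day+7 depends on how shared reads were counted.

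Angptl4 came back toward its level before CY. It was at 140, 134, 195, 560 and 148 CPM in CR tumors and 112, 173, 102, 156 and 114 CPM in PR tumors. A single CR tumor, CT7_6, was as high as the Day+3 tumors, and the other 9 lay within or just beyond the Day-1 range. The log2 fold change against Day-1 was 0.31 (SE 0.13, edgeR FDR 0.0237) with CT7_6 and 0.01 (FDR 0.880) without it.

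Between Day+3 and Day+7 all 10 members passed, 9 higher and Angptl4 lower, where 38.8% of all genes tested were called higher and 36.5% lower. Hk2 had the largest difference, a log2 fold change of 3.24 (SE 0.13, edgeR FDR 2.24e-25). Bnip3 followed at 2.48 (SE 0.22) and Adm at 2.38 (SE 0.17). Eno1 was at 1.55, Ldha at 1.35, Aldoa at 1.33, Egln3 at 1.13, Car9 at 0.94 and Gapdh at 0.79. Angptl4 was at −1.51 (SE 0.16, edgeR FDR 1.06e-11), or −1.81 without CT7_6. Hk2, Aldoa, Eno1, Ldha, Bnip3 and Adm did not overlap between the 2 times, a separation seen in 36.4% of all genes tested.

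**Figure D4:**
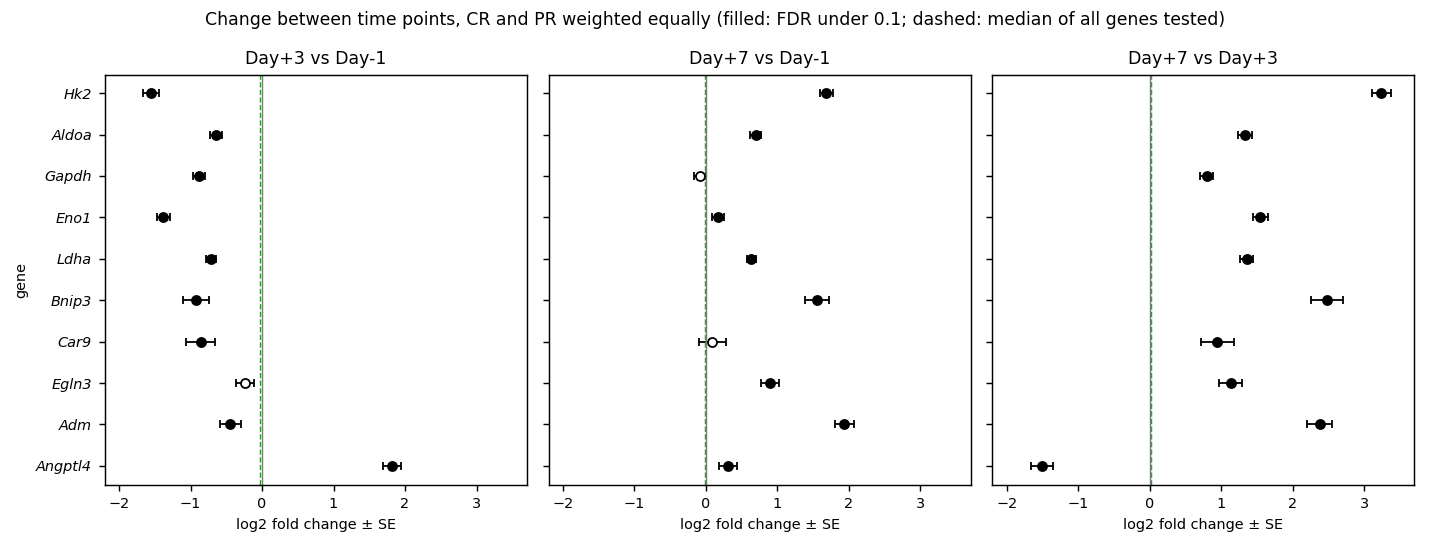
Log2 fold change with its SE (horizontal axis) of each member (vertical axis) between time points, filled where the edgeR FDR was under 0.1, with the median of all genes tested dashed. Hk2 lies at −1.55, 1.69 and 3.24 from left to right, and Angptl4 at 1.82, 0.31 and −1.51.

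Library scaling bears on these sizes. With library totals in place of TMM factors the median of all genes moved by 0.12 at Day+3 against Day-1, by −0.16 at Day+7 against Day-1 and by −0.28 at Day+7 against Day+3, and calls were higher in 57.4%, 43.4% and 33.7% of called genes. Under that scaling Eno1 at Day+7 against Day-1 was at −0.01 and Car9 at −0.08, while Gapdh was called lower at −0.26 (edgeR FDR 0.00133).

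CT7_6 was the tumor that stood apart at Day+7. It had the lowest level of the 10 Day+7 tumors for 7 of the 10 members and the highest for Angptl4. Its Aldoa was 1054 CPM against 1667 to 2804 CPM in the other 9, its Bnip3 54.9 against 112 to 356 CPM, and its Eno1 495 against 783 to 1377 CPM. Hk2 (203 CPM) and Adm (18.1 CPM) were inside the range of the others.

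Marker genes of cell types and of the cell cycle also differed in the same tumor. The summed level of 6 fibroblast genes was 32718 CPM in CT7_6 and 10711 to 16848 CPM in the other 9 tumors, and that of 5 mesothelium genes was 128 against 51.6 to 68.0 CPM. Its 8 T cell genes summed to 136 CPM against 231 to 578 CPM, its 8 macrophage genes to 13737 against 9950 to 13055 CPM, and its 12 cell cycle genes to 646 against 737 to 1084 CPM. The fibroblast level was in the range of Day+3 tumors (28679 to 33728 CPM), and the other levels named here were not. Day+3 tumors held 292 to 440 CPM of mesothelium genes, 32.2 to 79.8 CPM of T cell genes and 6100 to 9590 CPM of macrophage genes. Their cell cycle genes summed to 1841 to 2255 CPM. Red blood cell genes summed to 2.91 to 7.64 CPM at Day+3 and to 460 CPM in CT7_6. The part of these cells in the member values of CT7_6 was not tested.

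**Figure D5:**
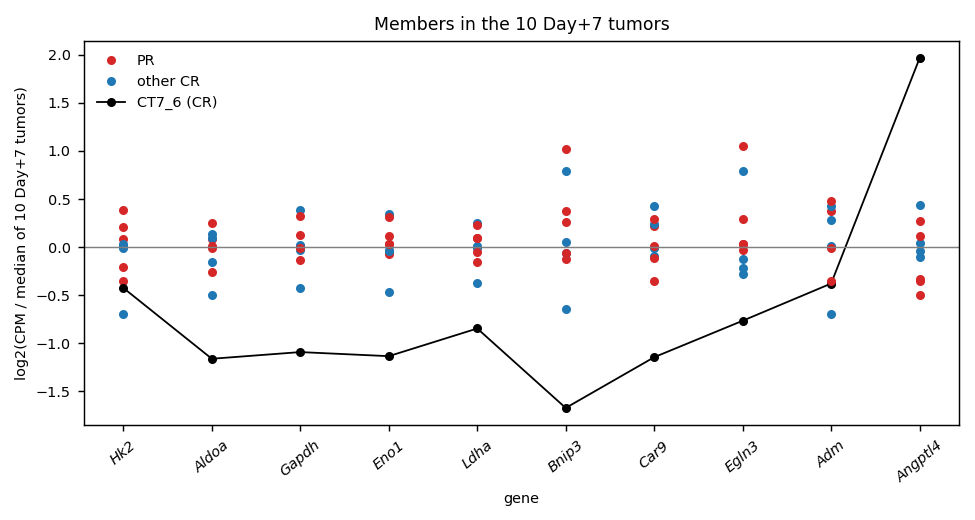
Level of each member in the 10 Day+7 tumors, as log2 of the ratio of CPM to the median of the 10 tumors (vertical axis), with the members along the horizontal axis (blue CR, red PR, black line CT7_6). CT7_6 is lowest for 7 members, down to 54.9 CPM for Bnip3, and highest for Angptl4 at 560 CPM.

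Response was compared again within each later time. At Day+3 none of the 10 members passed between CR and PR, as for all 11839 genes tested (0% called by edgeR, 4 genes by DESeq2 and 0 by limma-voom), and no member had an unadjusted p under 0.05. Log2 fold changes ran from −0.17 for Angptl4 (SE 0.11) to 0.08 for Hk2 (SE 0.20). CR and PR tumors overlapped for each of them.

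At Day+7 none of the 10 passed either (0% of 11727 genes called by edgeR, 6 genes by DESeq2 and 1 by limma-voom), and none had an unadjusted p under 0.05. Log2 fold changes were below 0 for 9 of the 10, where 48.8% of all genes tested were below 0, and they ran from −0.05 for Car9 (SE 0.24) to −0.46 for Bnip3 (SE 0.37), with Hk2 at −0.24 (SE 0.16) and Aldoa at −0.27 (SE 0.21). Angptl4 was at 0.85 (SE 0.40, unadjusted p = 0.0535 and FDR 0.967 by edgeR's model across all genes), and at 0.23 without CT7_6, which did not pass either. Without CT7_6 Bnip3 was at −0.24, Aldoa at −0.11, Eno1 at −0.11, Egln3 at −0.23, Hk2 at −0.19, Gapdh at −0.06, Ldha at −0.06 and Adm at −0.01, while Car9 turned to 0.13. With 5 tumors a group and standard errors of this size, differences as large as those seen could not be separated from the spread.

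Whether CR and PR diverged from their difference at Day-1 was tested as an interaction. None of the 10 members passed at Day+3 (0% of 13194 genes called by edgeR), with differences from −0.32 to 0.12 on the log2 scale. None passed at Day+7 (0.00758% called, 1 gene), with differences from −0.55 for Bnip3 (SE 0.34) to 0.70 for Angptl4 (SE 0.26, unadjusted p = 0.00961 and FDR 0.336 by edgeR's model across all genes). Without CT7_6 the value for Angptl4 was 0.09.

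The changes with time can be set beside cell markers, whose summed levels moved over the same tumors. The 8 macrophage genes summed to a median of 2926 CPM at Day-1 (1937 to 4472), 8389 CPM at Day+3 (6100 to 9590) and 11607 CPM at Day+7 (9950 to 13737). Neutrophil genes went from 778 to 2084 and then 638 CPM, T cell genes from 85.2 to 58.1 and 296 CPM, and endothelial genes from 233 to 248 and 299 CPM. Fibroblast genes went from 23435 to 31139 and 14194 CPM, genes of mesothelium from 376 to 344 and 60.1 CPM, and cell cycle genes from 3599 to 2131 and 873 CPM. Markers of red blood cells summed to 45.1, 5.24 and 441 CPM, those of fat cells to 154, 184 and 382 CPM, and those of skeletal muscle to 504, 358 and 624 CPM. Keratinocyte genes had medians of 6.73, 5.09 and 23.7 CPM with single tumors up to 621, 638 and 384 CPM. No gene of these lists was at 0 in all tumors of a time. The part of each of these cells in the changes of the members was not tested.

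Other enzymes of glycolysis and of steps beside it did not all follow the members at Day+3. The list also held Galm, and Fbp1, Fbp2 and G6pc3, which act in the reverse direction. Glycolytic enzymes with symbols later in the alphabet than Pax were missing from the count table and so from the list. Of 16 tested, 7 were higher and 4 lower against Day-1 (edgeR FDR under 0.1), where 37.9% and 39.6% of all genes were. Ldhb, the lactate dehydrogenase subunit that favours pyruvate, rose by a log2 fold change of 0.91 (SE 0.07) while Ldha fell, and its level went from 25.8 ± 2.93 to 48.7 ± 3.56 CPM. Eno2, a neuronal enolase, rose by 0.81 (SE 0.07), Galm, a sugar epimerase, by 0.66 (SE 0.09), and Fbp1, which runs the phosphofructokinase step backwards, by 2.42 (SE 0.19), from 0.606 ± 0.324 to 3.28 ± 0.489 CPM.

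At Day+7, 12 of the 16 were higher than at Day-1 and 1 was lower (43% and 42.8% of all genes), and against Day+3, 11 were higher and 3 lower (38.8% and 36.5% of all genes). Hk3 was at 28.9 ± 15.3 CPM at Day-1, 33.1 ± 12.7 at Day+3 and 549 ± 130 CPM at Day+7, a log2 fold change of 4.27 (SE 0.19, edgeR FDR 2.96e-24) against Day-1. Gpi1, which interconverts glucose and fructose phosphates, rose by 0.86 (SE 0.07), Eno2 by 1.42, Fbp1 by 3.07 and Ldhb by 0.56 against Day-1. Against Day+3, Hk3 rose by 4.05, Gpi1 by 1.27, Hk1 by 0.70 and Aldoc, a brain aldolase, by 2.40, while Ldhb fell by 0.35.

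Of 17 genes of glycogen, pyruvate and shuttle metabolism, which feed or drain the pathway, 12 were lower and 4 higher at Day+3, where 39.6% of all genes tested were lower and 37.9% higher. Gpd2, the mitochondrial glycerol phosphate dehydrogenase, fell by 1.003, Cs, citrate synthase, by 0.77 and Gpd1l by 0.51 on the log2 scale, while Mpc2, a subunit of the mitochondrial pyruvate carrier, rose by 0.67. At Day+7 the same list was split evenly against Day-1, with 7 higher and 7 lower (43% and 42.8% of all genes), and stood at 12 higher and 2 lower against Day+3 (38.8% and 36.5% of all genes). G6pdx, which opens the pentose phosphate pathway, rose by 0.98 and 1.26 in these comparisons, and Mpc1, the other pyruvate carrier subunit, by 0.92 and 0.82.

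The regulators of HIF moved in both directions. Of 15 genes, 6 were higher and 7 lower at Day+3 against Day-1, 8 and 5 at Day+7 against Day-1, and 7 and 3 at Day+7 against Day+3. In all genes tested the shares higher and lower were 37.9% and 39.6%, 43% and 42.8%, and 38.8% and 36.5%, so the counts at Day+3 lay near the background. Hif1a, the main oxygen-regulated alpha subunit, was at 319 ± 34.5 CPM at Day-1, 188 ± 20.5 CPM at Day+3 and 602 ± 107 CPM at Day+7. No Day+3 tumor reached the Day-1 range (253 to 375 CPM) and every Day+7 tumor was above it. Such a separation from Day-1, in one direction or the other, was seen in 26.9% of all genes tested at Day+3 and 39.4% at Day+7. The log2 fold changes of Hif1a against Day-1 were −0.76 (SE 0.07) and 0.92 (SE 0.06). HIF protein is set mainly by its breakdown, which RNA levels do not show.

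Epas1, which encodes the second alpha subunit, was at 47.9 ± 6.85, 58.9 ± 9.34 and 99.3 ± 9.48 CPM, and rose by 0.30 (SE 0.07) and 1.05 (SE 0.07) against Day-1. Egln1, the prolyl hydroxylase that does most to restrain HIF, fell by 0.48 (SE 0.06) at Day+3 and was at −0.07 (SE 0.06, edgeR FDR 0.295) at Day+7. Ep300, a coactivator of HIF, fell by 1.11 and by 0.55 at these times, Cul2, a part of the ligase that destroys HIF, fell by 0.55 at Day+3, and Os9 rose by 0.70 and 0.90.

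Among 33 further hypoxia targets, 12 were higher and 17 lower at Day+3, whereas 26 were higher and 3 lower at Day+7 against Day-1, and 28 and 3 against Day+3. The shares of all genes higher and lower were 37.9% and 39.6%, 43% and 42.8%, and 38.8% and 36.5%, near which the Day+3 count of higher genes lay. At Day+7 against Day-1 their median log2 fold change was 0.87, against −0.01 for all genes. Nos2, the inducible nitric oxide synthase, rose by 5.63 (SE 0.23) from 6.14 ± 3.83 to 303 ± 157 CPM. Flt1, a receptor of vascular growth factors, rose by 2.59 and Nfil3, a transcription factor, by 2.81. Bnip3l, the close relative of Bnip3 in mitophagy, was at 0.09 at Day+3 (edgeR FDR 0.191) and rose by 0.66 at Day+7, and Hilpda, a lipid droplet protein, rose by 0.49 and 1.28.

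The list was not uniform. Apln, which encodes the peptide apelin, fell at both times, by 1.96 and 2.52 on the log2 scale, from 104 ± 15.9 to 26.8 ± 3.08 and 18.1 ± 4.67 CPM. Mif, a cytokine, fell by 1.4 and Car12, another membrane carbonic anhydrase, by 1.49 at Day+3, while Insig2, a brake on sterol synthesis, rose by 0.61. Against Day+3, Maff and Bhlhe40, both transcription factors, rose by 2.12 and 1.79 at Day+7. None of the genes in these lists passed by edgeR between CR and PR at any time or in either interaction. At Day-1 DESeq2 called 2 of the 17 glycogen, pyruvate and shuttle genes and 3 of the 33 hypoxia targets, and limma-voom called these 2 genes of the first list, 5 hypoxia targets and 1 glycolytic enzyme, Hk3. The 2 genes were Dld and Gpd2, named after their values were seen. For the 33 hypoxia targets, 9 had an unadjusted p under 0.05 between CR and PR at Day-1, as had 17.5% of all genes tested, with a list median of 0.04.

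Genes most like the members were sought across the 46 tumors after each group's mean was removed. Differences in mean level between times or responses therefore did not enter, while differences in spread between the groups remained. Closest to the mean of the 5 glycolytic members was Gpi1, with r = 0.91 and rho = 0.84. Eno1b (0.89) and Gm13394 (0.89) came next, and both share reads with members. Fam162a, a mitochondrial protein known as a hypoxia target, had r = 0.87. The mean of the 5 hypoxia members gave Angptl4 the same sign as Bnip3, Car9, Egln3 and Adm. At Day-1 Angptl4 had r of −0.36, −0.01, −0.34 and −0.25 with them, and none of these pairs passed. Nearest to this mean was P4ha1, a collagen prolyl hydroxylase (r = 0.82 and rho = 0.73). Next came Ndrg1, a stress-induced protein (0.80 and 0.71), Ankrd37 (0.76 and 0.71), Nfil3 (0.76 and 0.66) and Nampt, an enzyme of NAD synthesis (0.71 and 0.56). These are descriptions over 46 tumors that share libraries and depth. Without CT7_6 Gpi1 had r = 0.87, while Ndrg1 (0.85) stood above P4ha1 (0.81), as it did in the 26 Day-1 tumors (0.92 and 0.82), so the order within the hypoxia list rests on that tumor.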

How the data were processed

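RNA of 46 whole tumors, each from a different mouse, was sequenced by the authors, who deposited 1 table of counts per gene. The submitters' processing notes name kallisto and the mouse build GRCm38.p6; the kallisto version and the way transcripts were summed to genes are not given in the sources used here, and the labels and the paper differ on read length. The deposited counts were whole numbers. The table, in order of symbol, ended in 1 incomplete entry, which was left out of its 46012, and it stopped at symbols beginning with Pax. Genes later in the alphabet were not analysed here, and library totals, CPM, shares of all genes, lists and nearest genes rest on the entries up to there. No 2 libraries were identical.

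Groups came from the labels. Counts were tested in R 4.3.3 with edgeR 4.0.16 (filterByExpr, TMM factors, quasi-likelihood test, Benjamini-Hochberg FDR under 0.1), CR against PR within a time point and times in 1 model of 6 groups. The SE beside an edgeR log2 fold change was derived from its test, as the absolute log2 fold change divided by the square root of the F statistic. CPM used TMM library sizes, and log2 CPM a prior count of 2. DESeq2 1.42.0, limma 3.58.1 (voom), other scalings and filters, and omission of tumors were alternatives. Near-identical copies were found as shared 31-base stretches, an alternative chosen after seeing the data. Scripts were tested on simulated data.

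All 10 members were named in every comparison, with up to 4 genes of smallest p among those called in each pathway list, Hif1a, Epas1, Egln1, Ldhb, Bnip3l and Hilpda, and the 5 genes nearest to the mean of each kind of member. A gene that this rule names is not reported here. The members and lists were chosen with earlier results of these data known. The lists were glycolytic and related enzymes, glycogen, pyruvate and shuttle enzymes, HIF regulators, hypoxia targets, partners and relatives, and markers of the cell types given in the text. Total counts of 10.2 to 19.4 M (M stands for 1e6) per tumor limit precision most for Car9 and Adm.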

Additional observations from a re-analysis of the deposited data

Results flagged for a closer look

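Angptl4 in CR tumor CT7_6 of Day+7 stood far from the other 4 CR tumors of that time. It was at 560 CPM where the next highest held 195 CPM. On the log2 CPM scale this gap was 0.739 of the range of the 5 tumors, above Dixon's critical value for a group of this size. It was the 1 such case in 40 groups of 5 tumors examined (10 genes in 4 groups), and chance gives about 1 in 20.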

How the results depend on the processing

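The number of members called in the 8 comparisons was within 1.5 times the reported number in all 276 counts from fits that left out 1 tumor. The same held in every other setting tried. Between CR and PR and in the interactions the reported number was 0 and stayed 0. These counts do not show which member was called or in which direction. Of the 45 pairs of members before CY, 10 passed in the 13 CR tumors and 16 in tumors with title numbers up to 14, against 28 in all 26 tumors. In the 13 PR tumors 30 passed, and 38 did in all 26 with skin and muscle scores regressed out. Of 379 log2 fold changes under other settings 364 kept their direction and side of the threshold, and of 1488 with 1 tumor left out 1462 did. For the log2 fold change of Gapdh, Day+7 vs Day-1, the value was 0.13 without tumors above 10 CPM of Krt5, −0.26 with library totals, and −0.16 to 0.0104 with 1 tumor left out, 0.0104 being without CT7_6. For the log2 fold change of Eno1, Day+7 vs Day-1, it was −0.00663 with library totals. For the log2 fold change of Car9, Day+7 vs Day-1, it was −0.0832 with library totals and −0.0465 with skin and muscle scores as covariates. For the log2 fold change of Angptl4, Day+7 vs Day-1, it was 0.07 by limma-voom, 0.16 with library totals and 0.12 with skin and muscle scores, none of which passed. Egln3, Day+3 vs Day-1, passed in 20 of the fits that left out 1 tumor. The cause of these changes was not tested. The number of genes called between CR and PR at Day-1 was 1 by edgeR, 430 by DESeq2, 1188 by limma-voom and 0 without the tumors above 10 CPM of Krt5. It was 0 by edgeR and 4 by DESeq2 at Day+3, 0, 6 by DESeq2 and 1 by limma-voom at Day+7, and for the interactions 0 and 3 (Day+3) and 1 and 37 (Day+7) by edgeR and DESeq2. No paired analysis was possible because every tumor came from a different mouse and the replicate numbers only name samples within a group.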

Other observations

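Partners and relatives of the members were a further list. Of 11 tested, 4 were higher and 2 lower at Day+3 against Day-1, 7 and 1 at Day+7 against Day-1, and 8 and 3 at Day+7 against Day+3 (edgeR FDR under 0.1), where 37.9% and 39.6%, 43% and 42.8%, and 38.8% and 36.5% of all genes tested were higher and lower. None passed between CR and PR by edgeR, DESeq2 or limma-voom. Lpl, the lipase that ANGPTL4 inhibits, was at 86.4 CPM at Day-1, 79.1 at Day+3 and 580 CPM at Day+7, a log2 fold change of 2.73 against Day-1. Gpihbp1, which anchors this lipase to capillaries, rose by 0.61 at Day+3, when Angptl4 was highest. Calcrl, the receptor through which adrenomedullin acts, fell by 0.48 at Day+3, and Adm2, a related peptide, fell by 1.34. Car4, a membrane carbonic anhydrase, rose by 4.65 at Day+7 against Day-1, from 5.41 to 135 CPM, while Car9 did not pass.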
